A study of Danio rerio with 4 samples.

Results

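The contacts described here join the neighbouring central blocks of the zebrafish (Danio rerio) major alpha/beta-globin domain on chromosome 3 of the danRer7 genome. The low block runs from 55.9461 to 55.9620 Mb (15.9 kb) and the high block from there to 55.9920 Mb (30 kb). All primer pairs with the midpoint of one primer in the low block and that of the other in the high block were taken, which gave 487 of the 6699 pairs measured. The rule uses primer positions alone. The low block carried 27 primers and the high block 36, and the primers of a pair lay 0.153 to 45.1 kb apart, with a median of 25.7 kb. The method was 5C, a form of chromosome conformation capture in which fixed chromatin is cut and religated, and each read then reports a ligation between 1 forward and 1 reverse primer. Primers are named by F (forward) or R (reverse) and their number in the files. A pair of primers of the same kind forms no product.

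The 4 libraries came from blood: 2 from adult fish and 2 from larvae 18 days post fertilisation, with no genotype or treatment distinguishing the groups in the labels. The study asked whether the adult and the embryo-larval parts of the globin locus are independent in structure and function, and the comparison here is of adult with larvae over the pairs that cross from one block to the other. A 5C library averages over many cells of whole blood, the blood was not sorted in the protocol given, and the files hold no expression values with which cell type markers could be checked. The labels speak of 2 biological replicates, and separate fish or templates within a stage are not named, so each p-value covers the spread among these libraries and no more.

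Globins carry oxygen in red blood cells, which in fish keep their nucleus. Zebrafish alpha- and beta-globin genes lie together in the same domain, where genes used in the embryo and larva and genes used in the adult form separate groups, next to nprl3, a gene whose introns hold an enhancer of the globin genes. In contact maps, a structural block is a stretch whose parts touch each other more often than they touch the neighbouring stretch at the same distance, which is why contacts across the boundary are set against contacts within each block below. No annotation of danRer7 was used, so no gene is assigned to either block.

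Total counts were 65450 and 38494 in the adult libraries, against 20801 and 6539 in the larvae libraries, so a missing pair in larvae carries less information than a missing pair in adults. Values are given as CPM, a count scaled to a common library total. A count of 0 in both libraries of a stage allows up to 3 counts over that stage, which is 28.9 CPM in adults and 110 CPM in larvae. Folds given as at least a value set the mean CPM of the other stage against this limit. The lower library of that other stage alone gives a smaller fold. Such limits, like the 95% Clopper-Pearson (exact binomial) intervals below, cover counting error only, since reads amplified by PCR and lacking molecular identifiers can repeat a molecule. Among 930 comparisons of primers of 1 kind, 3 sets could not be told apart by their counts over partner primers. The chi-square over its degrees of freedom was 1.06 and 0.543 in adults and 0.931 and 1.06 in larvae for F184 and F196, and 0.768 and 0.948 in adults and 0.992 and 1.07 in larvae for R220 and R233. It was 1.12 and 0.701 in adults and 1.02 and 0.959 in larvae for R224 and R236. The next most alike set, R220 and R260, had 3.28 and 2.98 in adults and 4.89 and 1.51 in larvae. Reads of such primers may not be separable in position, and the effect of leaving them out is given with the results it touches and under the processing alternatives.

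Contacts between the blocks took about the same share of all counts in both stages. They held 2530 and 1450 counts in the adult libraries, which is 3.87% (95% interval 3.72 to 4.02) and 3.77% (3.58 to 3.96) of the total. In the larvae libraries they held 802 and 238 counts, or 3.86% (3.60 to 4.13) and 3.64% (3.20 to 4.12). The share averaged 3.82% ± 0.0698 in adults and 3.75% ± 0.153 in larvae (SD, n = 2 per stage), and the libraries of the stages overlapped. With 2 libraries per stage no exact permutation test over libraries can pass 0.05, so single values are given with their spread and no test.

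The share depended on what entered the total. A set of 3 pairs that join the 3.1 kb directly below the low block (55.9430 to 55.9461 Mb) to the high block (F165-R224, F165-R236 and F217-R164) took a large part of all counts, and none of them is among the 487. Pairs between that stretch and the high block held 16.5% and 19.5% of counts in adults, against 25.7% and 34.8% in larvae, and 1.58% and 1.25% in adults against 1.16% and 0.467% in larvae once those 3 pairs were left out. Without the 3 pairs the contacts between the blocks took 4.56% and 4.62% of the remaining counts in adults, against 5.13% and 5.56% in larvae. The stages then did not overlap, with means of 4.59% in adults and 5.34% in larvae.

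Within the blocks the stages differed more than between them. Pairs inside the low block held 23.1% ± 0.542 of counts in adults and 11.7% ± 0.422 in larvae, while pairs inside the high block held 5.19% ± 0.198 in adults and 8.49% ± 0.0295 in larvae (SD, n = 2 per stage). The contacts between the blocks were therefore a smaller portion of all counts within and between the blocks in adults, 11.8% and 11.9%, against 15.8% and 15.5% in larvae. Both adult libraries lay below both larvae libraries in that portion, while the low-block portion was higher in both adult libraries.

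**Figure D1:**
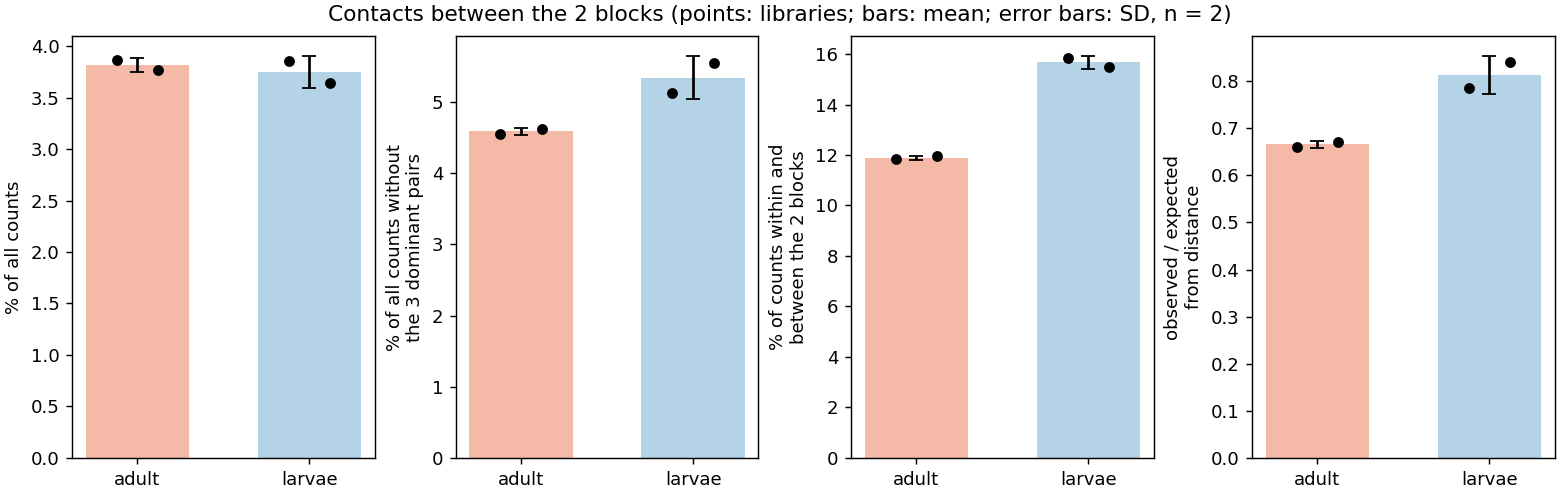
Contacts between the blocks in each library (points) with the stage mean (bars) and SD (error bars, n = 2), as a percentage of all counts, of all counts without the 3 dominant pairs, of counts within and between the blocks, and as observed over expected from distance. The first measure overlaps between adults (mean 3.82%) and larvae (mean 3.75%), and the other measures are lower in both adult libraries than in both larvae libraries.

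At matched distance, contacts across the boundary were fewer than contacts inside the low block in every library and distance class from 2 to 15 kb. Only 2 low-block pairs lie farther apart, and no ratio to the low block alone is given there. At 5 to 10 kb the 27 pairs between the blocks averaged 161 and 181 CPM per pair in adults and 60.5 and 85.0 CPM in larvae, while pairs inside the low block averaged 1090 and 1125 CPM in adults and 535 and 668 CPM in larvae. Ratios over several distance classes weight each class by its number of pairs between the blocks. Over 2 to 15 kb the contacts between the blocks came to 0.244 and 0.253 of the low-block level in adults. The larvae values were 0.322 and 0.296. Both adult libraries lay below both larvae libraries in this ratio, but the order depended on the distance class. At 2 to 5 kb the ratio was 0.158 and 0.238 in adults, against 0.439 and 0.368 in larvae. At 5 to 10 kb the order turned, with 0.148 and 0.161 in adults against 0.113 and 0.127 in larvae. At 10 to 15 kb it was 0.505 and 0.440 in adults, against 0.512 and 0.564 in larvae.

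The high block gave another order, which also depended on the distance class. Pairs inside it averaged 172 and 147 CPM at 5 to 10 kb in adults, and 190 and 189 CPM in larvae. Over 2 to 15 kb the contacts between the blocks came to 1.32 and 1.39 of the high-block level in adults, against 0.785 and 0.626 in larvae. The class of 10 to 15 kb carried the adult ratio, at 2.12 and 1.78 in adults, while it was 0.847 and 0.999 at 2 to 5 kb and 0.939 and 1.23 at 5 to 10 kb. Over 2 to 30 kb the ratios were 0.955 and 0.966 in adults and 1.01 and 0.820 in larvae, and the stages overlapped.

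Against both blocks together over 2 to 30 kb, the ratio of between to within averaged 0.590 ± 0.0032 in adults, against 0.760 ± 0.10 in larvae (SD, n = 2 per stage), lower in both adult libraries than in both larvae libraries. Most of its weight lies at 15 to 30 kb. The pairs within blocks there were 82 of the high block and 2 of the low block, the latter at 0 in all libraries. In that class the ratio thus compares with the high block almost alone. With the boundary 3 kb lower the difference of adult minus larvae shrank to −0.0455, against −0.170 with the boundary as given. Over 2 to 15 kb the ratio was 0.468 and 0.489 in adults and 0.505 and 0.428 in larvae, and the stages overlapped. The class held by the longer range alone is 15 to 30 kb, where the 237 pairs between the blocks averaged 59.9 and 57.9 CPM in adults, against 91.5 and 81.3 CPM in larvae. Pairs over 30 kb apart ran the other way, with 65.2 and 57.0 CPM in adults against 38.2 and 43.6 CPM in larvae.

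**Figure D2:**
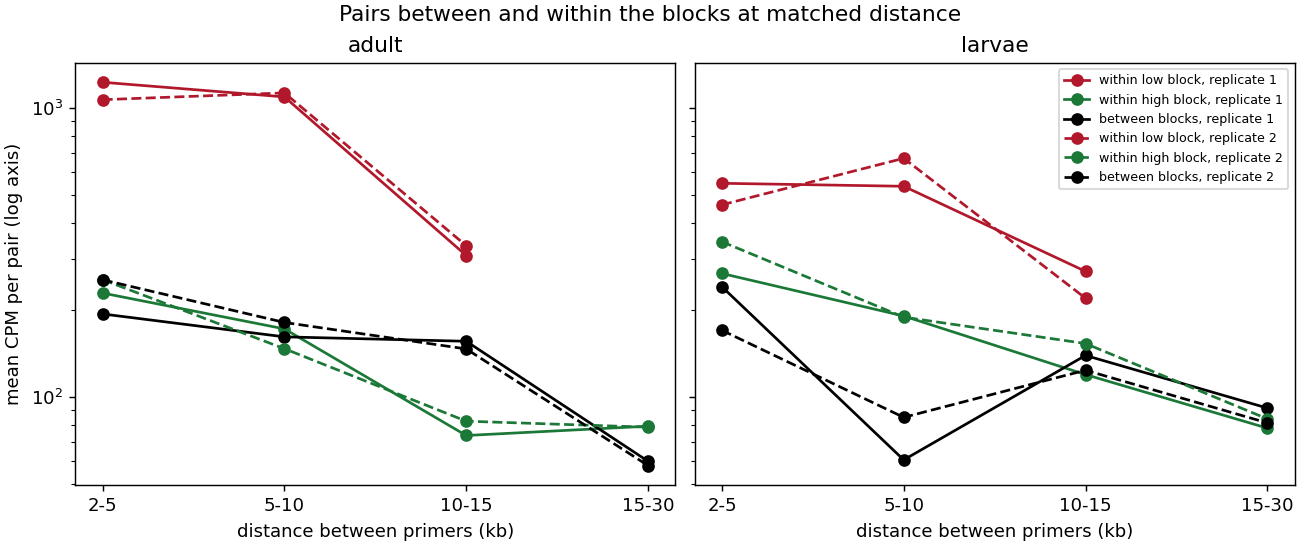
Mean CPM per primer pair (log axis) by distance class for pairs inside the low block, inside the high block and between the blocks, with a solid line for replicate 1 and a dashed line for replicate 2, adults left and larvae right. Between-block pairs lie below low-block pairs in every class shown, and at 5 to 10 kb they lie near high-block pairs in adults (161 and 181 against 172 and 147 CPM) and below them in larvae (60.5 and 85.0 against 190 and 189 CPM).

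Set against the mean of all pairs at the same distance over the whole region, contacts between the blocks were below 1 in all 4 libraries. Observed over expected was 0.660 and 0.671 in adults, against 0.785 and 0.841 in larvae (0.666 ± 0.0082 and 0.813 ± 0.040, SD, n = 2 per stage), without overlap. The low block stood at 2.99 ± 0.00038 in adults and 1.82 ± 0.079 in larvae, and the high block at 0.518 ± 0.0064 in adults and 1.03 ± 0.089 in larvae. In adults, contacts between the blocks therefore ranked above those inside the high block on this scale, and in larvae below them. When the expectation also held a factor for each primer, the blocks themselves moved to about 1, at 1.09 for low and 1.02 for high in adults against 1.11 and 0.982 in larvae. Those factors were fitted to the same counts, so values near 1 inside the blocks were partly set by the fit. Contacts between the blocks were lower, at 0.542 and 0.554 in adults and 0.685 and 0.706 in larvae. The fit matched each primer's total over all partners. These and later values with primer factors are therefore not independent of the excess inside the low block. The distance-based difference of adult minus larvae depended on where the boundary was placed. It was −0.147 with the boundary as given and 0.000801 with the boundary 3 kb lower.

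Low contact with the other side was not limited to the high block. Pairs of the low block with the stretch above the high block, up to the end of the measured region, stood at 0.416 ± 0.0100 in adults and 0.717 ± 0.068 in larvae with primer factors (SD, n = 2 per stage). Pairs of the low block with the 3.1 kb directly below it stood at 1.06 ± 0.016 in adults and 1.22 ± 0.052 in larvae.

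A count of contacts spanning each gap between neighbouring primers, with both ends within 15 kb, showed where in the region crossing contacts were few. At the gap on the boundary, between F210 and R211, observed over expected from distance was 0.657 and 0.705 in adults, against 0.780 and 0.964 in larvae, a mean difference of −0.191 that was 0.00953 with the boundary 3 kb lower and 0.0439 with a window of 10 kb. Out of 133 gaps this ranked 71 and 72 from the lowest in adults and 40 and 63 in larvae, so many gaps elsewhere in the region had fewer crossing contacts on that scale. With primer factors it was 0.556 and 0.605 in adults, against 0.665 and 0.766 in larvae, and ranked 23 and 22 in adults and 28 and 32 in larvae.

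The lowest gap inside the blocks with primer factors was not the boundary itself. It lay in the high block in each library: 7.98 and 2.36 kb above the boundary in adults (0.477 and 0.497) and 7.98 kb above it in both larvae libraries (0.460 and 0.507). The gaps ranked lower than these lay outside both blocks. On the distance scale the lowest gap inside the blocks lay 28.8 kb above the boundary in both adult libraries (0.287 and 0.303) and 7.98 kb above it in both larvae libraries (0.532 and 0.652). The boundary gap was above the median of all gaps in adults on that scale (0.629 and 0.642) and below it in larvae (0.971 and 0.980), so its standing depended on the expectation used.

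**Figure D3:**
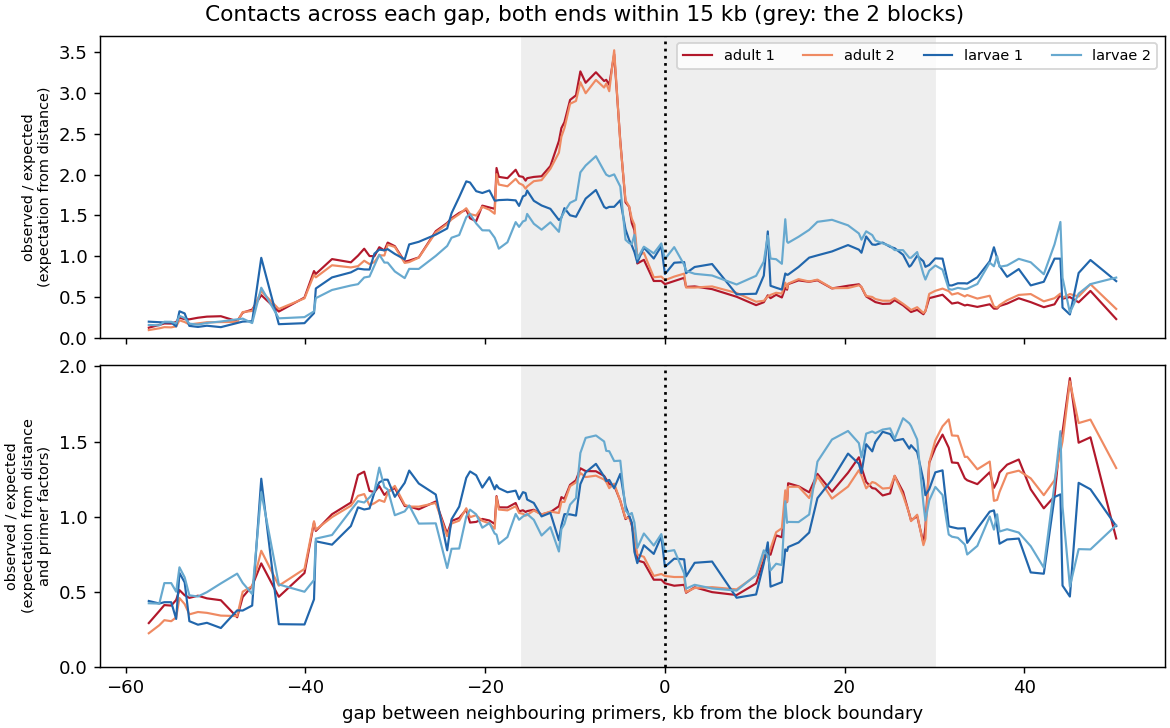
Observed over expected contacts across each gap between neighbouring primers (both ends within 15 kb), by distance from the block boundary in kb, for each library, with expectation from distance (top) and from distance and primer factors (bottom); grey marks the blocks and the dotted line the boundary. In the lower panel all 4 libraries dip around and above the boundary, to 0.477 and 0.497 in adults and 0.460 and 0.507 in larvae at their lowest within the blocks.

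Counts between the blocks were spread over more pairs in adults. Of the 487 pairs, 156 and 149 had reads in the adult libraries, against 73 and 61 in the larvae libraries. After all libraries were thinned to 6539 counts, 94 and 93 pairs had reads in adults, against 52 and 61 in larvae. Over all 6699 pairs the thinned portions were 19.4% and 19.0% in adults and 12.4% and 13.1% in larvae, close to the 19.3% and 19.1% in adults and 10.7% and 12.5% in larvae among pairs between the blocks, so the wider spread was shared with the whole map. The 10 highest pairs of each library held 27.9% and 23.2% of the counts between the blocks in adults, against 56.1% and 55.0% in larvae, and thinning left this at 31.7% and 29.3% in adults and 57.4% and 55.0% in larvae. This portion was not computed over other pairs, so it is not shown to be particular to contacts between the blocks.

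Many pairs were seen in 1 stage only. Adults had reads in 163 pairs, of which 142 (87.1%) were seen in both libraries, and larvae had reads in 80, of which 54 (67.5%) were seen in both, against 91.4% in adults and 73.3% in larvae over all pairs. After thinning the portions seen in both libraries were 58.5% in adults and 61.4% in larvae, so the order of the stages turned. The 49 pairs seen in both stages were 30.1% of the adult pairs and 61.3% of the larvae pairs. Over all pairs the shared portions were 31.5% of those seen in adults and 57.8% of those seen in larvae. Pairs seen only in adults numbered 114 and held 55.6% and 60.4% of adult counts between the blocks, and pairs seen only in larvae numbered 31 and held 40.3% and 39.1% of larvae counts. Of all 6699 pairs, 1397 were seen only in adults and 469 only in larvae. After thinning the numbers were 84 and 36 between the blocks, and 1029 and 497 over all pairs. No library had reads in 293 of the 487 pairs.

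**Figure D4:**
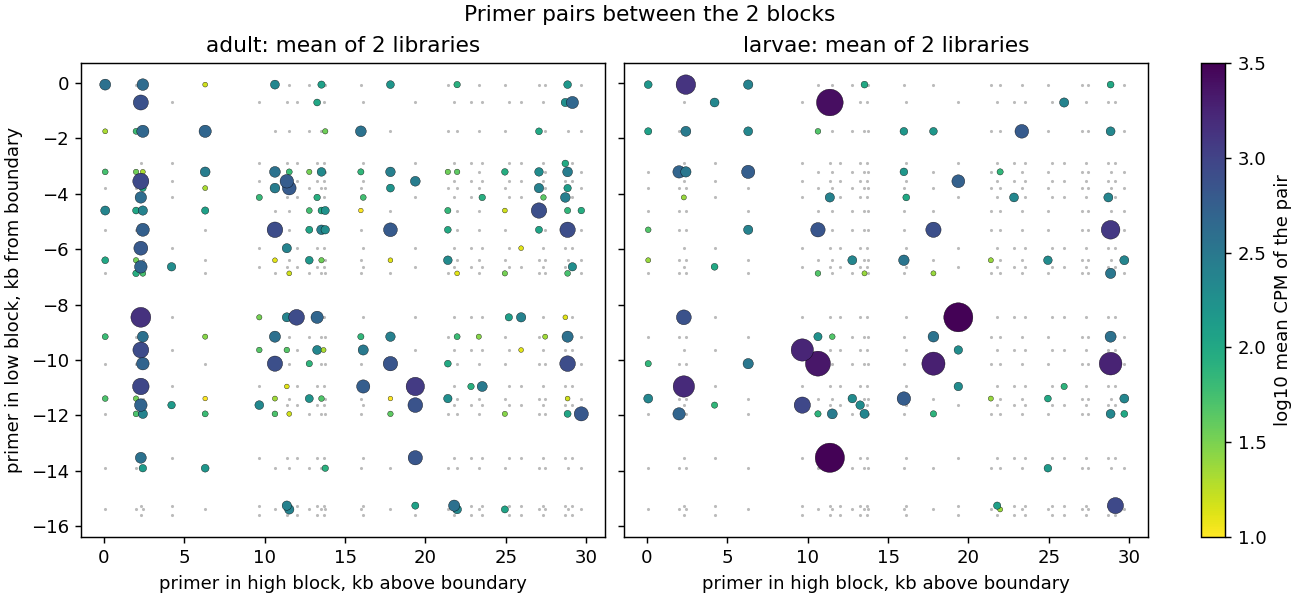
Each point is a primer pair between the blocks, placed by the distance in kb of its high-block primer (x) and low-block primer (y) from the boundary, with size and colour for the mean CPM of the stage (log10 scale) and small grey points for pairs at 0 in both libraries, adults left and larvae right. Adults show 163 pairs with reads and larvae 80, with the larvae counts in fewer, larger points.

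Of the pairs between the blocks, 41 had enough reads to be tested, and 446 did not. By the edgeR quasi-likelihood test at an adjusted p under 0.05, 19 were higher in adults and 9 in larvae, and 13 fell short of the threshold. Over all 679 tested pairs of the region, 70.1% passed, with 46.1% higher in adults and 24.0% in larvae, so the portions called between the blocks were near those of the region at large. The median log2 difference of adult minus larvae was 1.01 over the 41 pairs and 1.08 over all tested pairs, and this median was 0.91 over all tested pairs when only library totals were used for scaling and 1.15 with DESeq2 size factors. The direction of the median followed the filter: it was −0.40 over the 19 members with reads in both stages (−0.10 over such pairs of the region), −0.11 over the members left by a filter on the mean of all libraries (0.20 over the region) and −2.08 over the 5 members tested after thinning (0.14 over the region). Both adult libraries lay above both larvae libraries in 23 of the 41 (52.1% over all tested pairs) and below them in 14 (30.6%). A pair with reads in 1 stage only passes the filter through that stage. Every tested pair of this kind was called, between the blocks and over the region, so its call restates the filter. Of the 19 pairs higher in adults, 17 were at 0 in both larvae libraries, and of the 9 higher in larvae, 5 were at 0 in both adult libraries. Both stages had reads in 19 of the tested pairs, and of these 2 were higher in adults and 4 in larvae, where 43.5% of such pairs passed in the whole region. Of these called pairs, F188-R220 alone had enough reads for the filter in both stages. The others passed the filter only through the stage in which they were higher, so their adjusted p is not independent of the filter. Over the region, 72 of the 313 pairs higher in adults had reads in both stages, as had 84 of the 163 higher in larvae. The rest were at 0 in 1 stage.

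F215 (55964285 to 55964314), a forward primer near the lower edge of the high block, was in 6 of the 19 pairs higher in adults. All 6 were at 0 in both larvae libraries, so these calls restate the filter. For each pair named from here on that was at 0 in both libraries of a stage, the adjusted p adds no support beyond the filter. Fold limits of called pairs ran from 3.26 to 8.00 for those at 0 in larvae. They ran from 21.4 to 107 for those at 0 in adults. F215-R205, 5.85 kb apart, had 69 and 27 counts in adults and none in larvae, at least 8.00-fold higher (edgeR adjusted p = 8.99e-05). F215-R189, 11.9 kb apart, had 66 and 27 counts in adults and 0 in larvae, at least 7.79-fold higher (adjusted p = 0.000101, edgeR). F215-R209, 3.01 kb apart across the boundary, had 39 and 36 counts in adults and 0 in larvae, at least 6.98-fold higher (edgeR adjusted p = 0.000157), and lost its call without adult replicate 2 or larvae replicate 1 (up to 0.126). The same primer did not behave alike with all partners. F215-R191, 10.8 kb apart and the highest pair in adults, had 94 and 51 counts in adults (1381 ± 78.7 CPM) and 18 and 4 in larvae (739 ± 179 CPM; SD, n = 2 per stage), a log2 difference of 1.01 ± 0.66 (SE) that did not pass (adjusted p = 0.160, edgeR). F215-R186 had 77 and 27 counts in adults (1176 and 701 CPM) and 16 and 16 in larvae (769 and 2447 CPM), and the stages overlapped.

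Longer pairs were among those higher in adults as well. F223-R191, 20.4 kb apart, had 54 and 33 counts in adults and none in larvae, at least 7.67-fold higher (edgeR adjusted p = 0.000113). F201-R256, 31.7 kb apart, had 57 and 28 counts in adults and 0 in larvae, at least 7.28-fold higher (adjusted p = 0.000132, edgeR; 0.0560 without larvae replicate 1). Both pairs higher in adults with reads in all 4 libraries were over 30 kb long, and both passed the filter through adults alone. F234-R186, 30.3 kb apart, had 101 and 31 counts in adults (1543 and 805 CPM) and 5 and 1 in larvae (240 and 153 CPM), a log2 difference of 2.62 ± 0.87 (SE; edgeR adjusted p = 0.00433). F179-R262, 41.6 kb apart, had 60 and 16 counts in adults (917 and 416 CPM) and 1 and 1 in larvae (48.1 and 153 CPM), a log2 difference of 3.28 ± 1.11 (SE; adjusted p = 0.00503, edgeR). F234-R186 lost its call without adult replicate 1, adult replicate 2 or larvae replicate 1 (up to 0.197), and F179-R262 without adult replicate 2 or larvae replicate 1 (up to 0.229).

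Larvae had single pairs at CPM levels that no pair between the blocks reached in adults. F234-R191, 27.8 kb apart, had 0 counts in both adult libraries and 85 and 13 in larvae (4086 and 1988 CPM). By the larvae mean it was at least 105-fold lower in adults (edgeR adjusted p = 1.73e-15). F221-R178, 24.9 kb apart, had 0 counts in adults and 20 and 34 in larvae (961 and 5200 CPM). By the larvae mean it was at least 107-fold lower in adults (adjusted p = 1.64e-12, edgeR). The larvae libraries lay far apart, and the lower of them alone gives a much smaller fold. F221-R209, 12.1 kb apart, had 0 counts in adults and 71 and 11 in larvae (3413 and 1682 CPM). By the larvae mean it was at least 88.3-fold lower in adults (edgeR adjusted p = 2.72e-13). In each of these the partners had reads elsewhere in adults: R191 held 8.80% ± 0.74 of adult contacts between the blocks (SD, n = 2) and F221 had 112 and 41 counts with the low block, none of them in these pairs. F234-R186, described above, was higher in adults although its forward primer is that of F234-R191, while the low-block partners R186 and R191 lie within 3 kb of each other. F261-R176, the longest named pair at 44.4 kb, had 0 counts in adults and 21 and 5 in larvae, at least 30.7-fold lower in adults (adjusted p = 3.52e-11, edgeR). F208-R241, 25.1 kb apart, had 0 counts in adults and 13 and 4 in larvae, at least 21.4-fold lower in adults (edgeR adjusted p = 1.88e-11), and its call was lost without either adult replicate (up to 0.108).

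F219-R189, F206-R214 and F219-R182 passed the filter through larvae alone, so their adjusted p is not independent of the filter. F219-R189, 19.3 kb apart, had 6 and 0 counts in adults (91.7 and 0 CPM) and 54 and 6 in larvae (2596 and 918 CPM), a log2 difference of −4.85 ± 0.86 (SE; edgeR adjusted p = 1.44e-07) that held in all 14 alternatives in which it was tested. F206-R214, 5.22 kb apart, had 3 and 1 counts in adults and 11 and 3 in larvae, a log2 difference of −3.44 ± 0.60 (SE; adjusted p = 4.01e-06, edgeR), lost without either adult replicate (up to 0.421). F219-R182 had 11 and 10 counts in adults and 28 and 3 in larvae, a log2 difference of −2.10 ± 0.76 (SE; edgeR adjusted p = 0.00976), lost without adult replicate 1, adult replicate 2 or larvae replicate 1 (up to 0.610).

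F188 (55951854 to 55951883), in the low block, had reads with 3 widely spaced high-block primers at like levels. F188-R220, 20.8 kb apart, had 59 and 26 counts in adults (788 ± 160 CPM) and 48 and 14 in larvae (2224 ± 118 CPM; SD, n = 2 per stage), lower in adults by a log2 difference of −1.30 ± 0.58 (SE; adjusted p = 0.0372, edgeR), a call lost in 11 of 16 alternatives. F188-R233 had 47 and 26 counts in adults and 44 and 11 in larvae (edgeR adjusted p = 0.0543). F188-R260 had 61 and 28 counts in adults and 41 and 11 in larvae (adjusted p = 0.147, edgeR). Counts of R220 and R233 over partners could not be told apart, so these are not shown to be separate contacts. F199, another low-block forward primer, had 52 and 33 counts with R220 in adults and 16 and 4 in larvae, a log2 difference of 0.39 ± 0.74 (SE; edgeR adjusted p = 0.647).

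When pairs were summed in bins of about 5 kb, all 18 bin pairs between the blocks could be tested, and adult and larvae differed in both directions within the same bins. By edgeR 4 were higher in adults and 5 in larvae, and 9 fell short of the threshold. Over all 276 tested bin pairs of the region 53.6% passed, with 31.9% higher in adults and 21.7% in larvae. Both adult libraries lay above both larvae libraries in 7 bin pairs (45.3% over the region) and below them in 6 (32.6%). The median log2 difference of adult minus larvae was 0.22 over the 18 and 0.35 over all tested bin pairs.

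Bins are placed by their distance from the boundary. The bin 10 to 5 kb below it held called differences both ways. With the bin 0 to 5 kb above it had 304 and 194 counts in adults (4842 ± 279 CPM) and 22 and 5 in larvae (911 ± 207 CPM; SD, n = 2 per stage), a log2 difference of 2.38 ± 0.41 (SE; edgeR adjusted p = 8.81e-08). F215-R191 gave 94 and 51 of the adult counts. With the bin 10 to 15 kb above it had 276 and 152 counts in adults (4083 ± 190 CPM) and 25 and 8 in larvae (1213 ± 15.2 CPM), a log2 difference of 1.81 ± 0.41 (adjusted p = 5.39e-05, edgeR). With the bin lying between those, 5 to 10 kb above, the direction was the opposite, with 9 and 3 counts in adults (108 ± 42.1 CPM) and 61 and 7 in larvae (2002 ± 1317 CPM), a log2 difference of −4.15 ± 0.75 (edgeR adjusted p = 4.44e-07). The pair F219-R189 gave 54 and 6 of those larvae counts, and this bin pair passed the filter through larvae alone. With the bin 15 to 20 kb above it had 85 and 49 counts in adults (1286 ± 18.2 CPM) and 130 and 21 in larvae (4731 ± 2148 CPM), a log2 difference of −1.88 ± 0.37 (adjusted p = 3.25e-06, edgeR; 0.0537 without larvae replicate 1), with 85 and 13 of the larvae counts in F234-R191.

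Of the other bins of the low block, the one next to the boundary had 1 called pair and the lowest had 4. The bin 5 to 0 kb below the boundary with the uppermost bin, 25 to 30 kb above, had 198 and 126 counts in adults (3149 ± 175 CPM) and 17 and 5 in larvae (791 ± 37.2 CPM; SD, n = 2 per stage), a log2 difference of 2.03 ± 0.50 (SE; edgeR adjusted p = 0.000197), lost without either adult replicate. The lowest bin, 15.9 to 10 kb below, with that 10 to 15 kb above had 129 and 60 counts in adults (1765 ± 292 CPM) and 84 and 56 in larvae (6301 ± 3200 CPM), a log2 difference of −1.68 ± 0.34 (adjusted p = 6.57e-06, edgeR), of which F188-R220 gave 48 and 14 larvae counts and F221-R178 gave 20 and 34. The same low bin was higher in adults with the bin 20 to 25 kb above, at 95 and 53 counts in adults and 11 and 2 in larvae (log2 difference 1.69 ± 0.72, edgeR adjusted p = 0.0399). It was lower in adults with the bin 25 to 30 kb above, at 132 and 47 counts in adults and 72 and 21 in larvae (−0.97 ± 0.42, adjusted p = 0.0385, edgeR). It was also lower in adults with the bin 5 to 10 kb above, at 23 and 20 counts in adults and 35 and 5 in larvae (−1.56 ± 0.67, edgeR adjusted p = 0.0404). These last 3 calls were lost in 10 of 15, 9 of 16 and 7 of 15 alternatives in that order.

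**Figure D5:**
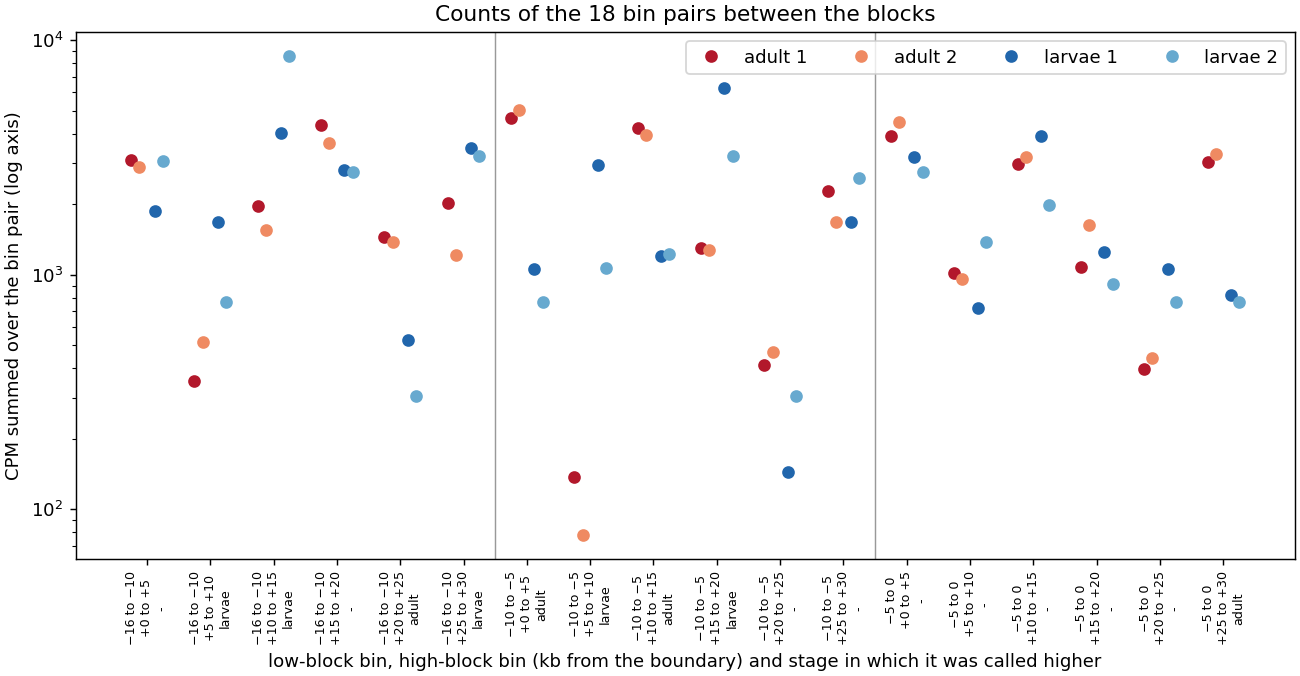
CPM summed over each of the 18 bin pairs between the blocks (log axis), a point per library, ordered by low-block bin and then high-block bin in kb from the boundary, with the stage in which the bin pair was called higher under each label. Of the 18, 4 were higher in adults and 5 in larvae, and neighbouring high-block bins differ in direction for the middle low-block bin.

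Each primer's counts were then summed over the opposite block. A read enters the sum of its low-block primer and that of its high-block primer, so the sums are not independent. Of the 63 primers, 53 could be tested, and by edgeR 14 had more counts with the opposite block in adults, 6 had more in larvae and 33 fell short of the threshold. Over all 597 tested sums of a primer with a stretch of the region 56.3% passed, with 33.3% higher in adults and 22.9% in larvae. The low block gave 6 primers higher in adults and 3 higher in larvae, and the high block 8 and 3. There were 12 primers (19.0%) with reads across the boundary in adults and none in larvae, and 0 with the reverse, against 142 (17.3%) and 18 of all 820 sums of a primer with a stretch of the region. The numbers were also 12 and 0 after thinning to 6539 counts, against 138 (16.8%) and 36 (4.39%) of all sums. Of the 12 at full depth, 6 passed the filter and all of these were called. The other 6 had too few reads to be tested. Such a primer passes the filter through its adult reads, so its call restates the filter. Its adjusted p, where given below, adds no support beyond that. For F228, F257, R207 and R258 the adult level was itself below the larvae limit of 110 CPM.

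F215 carried the largest share of adult contacts between the blocks, 19.0% ± 0.30 of them in adults and 6.38% ± 2.9 in larvae (SD, n = 2 per stage). Its counts with the low block were 476 and 279 in adults and 35 and 20 in larvae, a log2 difference of 1.76 ± 0.34 (SE; edgeR adjusted p = 2.39e-06). F201 (55957376 to 55957405) had 146 and 75 counts with the high block in adults, 5.47% ± 0.42 of the adult contacts between the blocks, and none in larvae, at least 19.0-fold higher (adjusted p = 2.24e-08, edgeR). F201 did have reads in larvae, with 555 and 179 counts over all partners against 3281 and 1746 in adults. Distance with primer factors gave an expectation of 97.6 and 36.3 counts with the high block in larvae. In adults the same expectation was 402.0 and 217.1 counts, above the 146 and 75 observed. F201 thus fell short of this expectation in both stages. F203 (55958185 to 55958214) had 89 and 68 counts with the high block in adults and 0 in larvae, at least 14.2-fold higher (edgeR adjusted p = 3.79e-07). R198 had 44 and 43 counts in adults and 0 in larvae, at least 8.15-fold higher (adjusted p = 3.38e-05, edgeR; 0.0535 without adult replicate 2). These primers of the low block lie within 3 kb of one another. In the high block R256 had 93 and 58 counts with the low block in adults and 0 in larvae, at least 13.3-fold higher (edgeR adjusted p = 6.93e-07). For a primer at 0 in larvae, 3 counts over the stage would be 0.288% of the larvae contacts between the blocks.

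Primers with more counts in larvae lay in both blocks, which follows from each read entering a sum on either side. These sums largely restate pairs named above. All larvae counts of R178 were in F221-R178, and all those of R241 in F208-R241. Those of F219 were all in F219-R189 and F219-R182. F221-R178 and F221-R209 held most larvae counts of F221, and F221-R209 most of those of R209. F221 (55973364 to 55973393) held 3.63% ± 1.1 of contacts between the blocks in adults and 15.8% ± 5.0 in larvae (SD, n = 2 per stage), with 112 and 41 counts in adults and 98 and 46 in larvae, a log2 difference of −2.0 ± 0.36 (SE; edgeR adjusted p = 2.95e-07; 0.0524 without adult replicate 2). F219 (55971652 to 55971681) had 20 and 16 counts in adults and 82 and 9 in larvae, a log2 difference of −2.98 ± 0.58 (adjusted p = 2.01e-06, edgeR). F188 held 7.86% ± 0.10 in adults and 16.9% ± 1.3 in larvae, with 197 and 115 counts in adults and 143 and 38 in larvae, a log2 difference of −1.08 ± 0.31 (edgeR adjusted p = 0.00168). Its call was lost without either adult replicate and when R233, R236, R260 and F196 were left out. R241 had 2 and 1 counts in adults and 13 and 4 in larvae (log2 difference −4.25 ± 0.70, adjusted p = 2.09e-08, edgeR), lost without either adult replicate. It passed the filter through larvae alone, so its adjusted p is not independent of the filter. R178 had 61 and 45 counts in adults and 20 and 34 in larvae (−1.36 ± 0.54, edgeR adjusted p = 0.0230), and without larvae replicate 2 its difference was 0.15. R209, the closest of these to the boundary, had 84 and 68 counts in adults and 87 and 12 in larvae (−1.06 ± 0.43, adjusted p = 0.0246, edgeR), a call lost in 8 of 16 alternatives (up to 0.724).

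Several primers with a large share in both stages did not pass the test. R191 held 8.80% ± 0.74 in adults and 9.99% ± 4.0 in larvae, F199 held 9.41% ± 0.34 in adults and 7.94% ± 1.1 in larvae, and F234 held 7.81% ± 0.37 in adults and 10.5% ± 5.3 in larvae (SD, n = 2 per stage). The pair formed by R191 and F234 was at 0 in adults and among the highest in larvae, although neither primer's total passed.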

How the data were processed

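For each library the authors deposited a matrix of whole-number read counts per forward and reverse primer pair, with no normalization; primer coordinates are given per the file headers. The build was danRer7 and the tools were Bowtie2 2.2.2 and bcl2fastq 1.8.4, per the submitters' processing notes. The sources used here give neither the enzyme nor the rule that assigned reads to pairs. The low block was 55946101 to 55962000, the high block 55962001 to 55992000 and the stretch below the low block 55943001 to 55946100, all on chromosome 3. Members and lists were chosen with earlier results of these data known.

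Pairs, 5 kb bin pairs and sums of a primer over a stretch of the region were each tested over the whole table in edgeR 4.0.16 (R 4.3.3; TMM, filterByExpr at a count of 10 and a total of 15, quasi-likelihood test, Benjamini-Hochberg, threshold 0.05), with stage as the only term. Log2 differences are adult minus larvae. Their SE is the size of the difference over the square root of the quasi-likelihood F statistic, so it restates the test. A fold against a stage at 0 set the mean CPM of the other stage against 3 counts over the stage at 0. On simulated data with 4-fold changes, the test recovered 133 of 185 changed pairs (71.9%), 40 of 60 bin pairs and 48 of 59 primer sums. Only changed rows that passed the filter are counted there. Unchanged rows gave 7, 0 and 2 calls in that order. Expected counts came from distance, or from distance and primer factors, with the 3 dominant pairs left out. The text names the 8 pairs of highest mean CPM in each stage, called pairs with reads in all 4 libraries (up to 6 each way), called pairs at 0 in a stage (up to 5 each way), all called bin pairs, the 5 primers per block with the largest shares and up to 5 called primers each way. Alternatives were other scaling (library totals, DESeq2 1.42.0), filters, thinning to 6539 counts, leaving out each library, dominant pairs, like primers or pairs under 5 kb, a replicate block, windows and boundary position. The last alternatives, leaving out R233, R236 and F196, with or without R260, were chosen after seeing the data. An exact permutation test over 2 libraries against 2 cannot go below 0.333, so single values carry no test.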

Additional observations from a re-analysis of the deposited data

How the results depend on the processing

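Of 740 values of 49 named pairs, bin pairs and primers under the alternatives, 638 kept their direction and side of the threshold, 77 lost the call, 16 gained one and 9 changed sign. Pairs between the blocks higher in adults numbered 19, and 64 with no filter, 9 with the filter on the mean, 0 of 5 tested after thinning and 3 to 27 when a library was left out. Pairs higher in larvae numbered 9, and 25, 6, 5 and 1 to 11 in that order. The thinned edgeR fit tested 125 pairs of the region, 90 with an unadjusted p under 0.05, since fewer pass the filter. Bin pairs higher in adults numbered 4, and 2 to 3 when a library was left out. Bin pairs higher in larvae numbered 5, and 3 by DESeq2, 3 with no filter, 2 after thinning and 2 to 5 when a library was left out. Primers higher in adults numbered 14, and 2 after thinning and 5 to 19 when a library was left out. Primers higher in larvae numbered 6, and 2 after thinning and 1 to 9 when a library was left out. With the replicate number as a block the counts in adults and larvae were 19 and 8 pairs, 3 and 3 bin pairs and 13 and 4 primers. The deviations of same-numbered libraries from their stage means correlated at −0.00023 over 683 pairs. With 2 libraries per stage this is a single correlation, and it does not settle whether the numbers pair the libraries.

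Adult minus larvae in the share of counts was 0.0685 percentage points, and −0.753 without the 3 dominant pairs, −0.490 without R224 and R236, 0.267 for pairs at least 5 kb apart, −0.145 after thinning and −0.0394 to 0.176 when a library was left out. The difference in the ratio of between to within was −0.170, and −0.0455 with the boundary 3 kb lower and −0.241 to −0.0993 when a library was left out. In observed over expected it was −0.147, and −0.0932 without R233, R236, R260 and F196, 0.000801 with the boundary 3 kb lower and −0.175 to −0.119 when a library was left out. At the boundary gap it was −0.191, and 0.00953 with the boundary 3 kb lower, 0.0439 with a window of 10 kb and −0.283 to −0.0987 when a library was left out. Sign changes were in F215-R186 (0.0062 with no filter, −1.18 to 0.44 when a library was left out, with 0.045 without adult replicate 2), F234 (−0.84 to 0.31), R178 (−2.29 to 0.15), R191 (−0.51 to 0.41) and R220 (−0.20 to 0.0043 when a library was left out, 0.041 without the dominant pairs, 0.015 without R224 and R236). The causes were not tested. The larvae library of 6539 counts limits what can be seen in that stage.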
